A study of Mus musculus with 2 samples.

Results

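The 10 genes of MHC class II antigen presentation listed in the RNA sequencing tables of cultured mouse Th1 cells were examined, out of 24421 genes in each table. They were chosen by name. They comprise H2-Aa, H2-Ab1 and H2-Eb1, which encode chains of the presenting molecules, H2-DMa, H2-DMb1 and H2-DMb2, H2-Oa and H2-Ob, Cd74, and Ciita. All 10 symbols were listed in both tables, and each of them had 20 or more reads in both libraries.

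The tables hold 2 libraries, with 1 sample per genotype. They are labelled WT (Chi3l1+/+) Th1 and Chi3l1 KO (Chi3l1-/-) Th1, both on the C57BL/6J background. The labels name in vitro skewed Th1 cells as the cell type and a naive CD4 T cell as the source. Per the methods of the study, sorted naive CD4 T cells were activated on plate-bound antibodies to CD3 and CD28 with IL-12, IL-2 and an antibody to IL-4, and the KO mice lack Chi3l1 in the whole animal. The mice were 6 to 8 weeks old, and the labels do not say whether cells of several mice were pooled. Chi3l1 encodes chitinase 3-like 1, a secreted chitinase-like protein without enzymatic activity, and the comparison asks how Th1 cells without it differ in gene expression.

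MHC class II molecules are pairs of an alpha and a beta chain that carry peptides from the endocytic pathway to the cell surface, where CD4 T cells recognize them. The invariant chain, Cd74, blocks the groove of new molecules and guides them to endosomes, H2-DM exchanges its remnant for other peptides, and H2-DO restrains H2-DM. Ciita encodes the class II transactivator, which switches class II genes on from their promoters. B cells, dendritic cells and macrophages are the main expressing cells. Mouse T cells are generally held to make little class II.

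The targeted gene was checked first. Chi3l1, listed as Chil1, had 1 read in the library labelled WT Th1 and 104 reads in the library labelled Chi3l1 KO Th1, a ratio of 108 with a counting interval from 18.2 to 4134. This direction goes against the genotype labels, and whether the reads come from a part of the gene that the disrupted allele keeps was not tested. The libraries are therefore called by their labels, WT-labelled and KO-labelled, and each direction below rests on those labels. The read totals, rebuilt from the deposited values, were 70931343 and 63318913. The cell type label was checked against markers. The 10 T cell genes differed by a median of -0.03 on the log2 scale, but not all were level. In the KO-labelled library 3 had higher and 7 lower values, with counting intervals above 0 for 2 and below 0 for 4. Cd4 differed by -0.37, Cd5 by -0.525 and Cd3g by -0.29, while Cd247 differed by 0.19. Cd3e, a subunit of the T cell receptor complex, had log2 values of 14.94 (WT-labelled) and 14.86 (KO-labelled). Tbx21, the Th1 transcription factor, had 13.98 and 13.72. Of the Th1 genes, 2 lay past 2-fold. Ifng, the Th1 cytokine, had 3497 and 8778 reads, and the chemokine receptor Cxcr3 had 274 and 117.

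The promoters of class II genes hold a conserved upstream part with an X box, bound by the RFX complex, followed by a Y box, bound by NF-Y, on which the transactivator assembles. Promoters were taken from RefSeq (build GRCm38.p6), which gave 8 of them for 7 of the 10 members, each 250 bases before to 50 bases after a start. H2-Ab1, Cd74 and Ciita had no entry. Stretches of 4 members are printed to show how alike or unlike this part is in genes whose levels are compared below. They run from 125 to 31 bases before the start, and capitals mark the motifs searched on both strands, none of which overlapped another. These are ATTGG (the core of the Y box, or CCAAT on the other strand), AACNNATGATGC (letters around the X box, read from these promoters as what 4 members share) and TGACGTCA (the cyclic AMP response element).
H2-DMb2 (chr17:34145124-34145218, plus strand): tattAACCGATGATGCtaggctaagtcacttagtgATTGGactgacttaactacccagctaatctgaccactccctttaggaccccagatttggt
H2-Ob (chr17:34238780-34238874, plus strand): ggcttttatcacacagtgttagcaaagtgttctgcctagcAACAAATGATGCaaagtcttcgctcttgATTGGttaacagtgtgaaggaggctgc
H2-Aa (chr17:34287854-34287948, minus strand): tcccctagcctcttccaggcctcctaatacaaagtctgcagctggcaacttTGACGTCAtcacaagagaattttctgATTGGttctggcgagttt
H2-Eb1 (chr17:34305742-34305836, plus strand): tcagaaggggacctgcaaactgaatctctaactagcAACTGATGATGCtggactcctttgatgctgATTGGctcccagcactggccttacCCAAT

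The X box letters were found in 13 of 32851 RefSeq promoters (0.0396%), among them those of H2-DMb1, H2-DMb2, H2-Eb1 and H2-Ob, from which they were read. The core of the Y box was found in 37.4% of all promoters and in 7 of the 8 member promoters, so that its presence alone sets few promoters apart. In the 4 genes with both, the gap between the X box letters and the next core of the Y box was 19 bases in H2-DMb1 and H2-DMb2, 18 in H2-Eb1 and 16 in H2-Ob. The cyclic AMP response element was found in 1.79% of all promoters and, of the members, in H2-Aa, where it stood between 74 and 67 bases before the start. The X box letters came from 4 other members, so their absence from H2-Aa does not show that it lacks an X box. The stretches of H2-DMb1 and H2-Oa overlap exons of the GENCODE annotation by 89 and 9 bases and are not printed. A match is a description of the letters. Binding was not measured in these data.

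The deposited values were taken to be normalized counts on a log2 scale with 1 added before the log, and a log2 fold change is the value in the KO-labelled library minus that in the WT-labelled library. With 1 sample per genotype no difference has a replicate check and no test was possible. The interval given with a difference is a 95% interval by the exact binomial method of Clopper and Pearson on the rebuilt reads. It covers counting error only, not the variation between mice or cultures. The reads carry no molecular identifiers, so they are not independent molecules. In bulk RNA, fewer cells of a type and less RNA per cell cannot be told apart.

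Among the 10 members, 1 was at least 2-fold higher in the KO-labelled library, H2-DMb2, and 0 were at least 2-fold lower. Over all genes, 4.7% were at least 2-fold higher and 5.81% at least 2-fold lower, and among the 13019 genes with 20 or more reads in at least 1 library these shares were 3.22% and 4.4%. At 1.5-fold, 4 members were higher (H2-Aa, H2-Eb1, H2-DMb1 and H2-DMb2) and 1 was lower (Ciita), where 9.6% and 11.4% of all genes were, and 9.17% and 11.4% of the genes with enough reads. The counting interval lay above 0 for 6 members and below 0 for 3. It did so for 34% and 36.3% of the genes with enough reads, so an interval that leaves out 0 was common in these libraries. The median log2 fold change of the members was 0.34, beside -0.01 over the genes with enough reads, and 0.0605 without H2-DMb1 and H2-DMb2, whose reads cannot be fully split between them. The values thus spread in both directions.

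**Figure D1:**
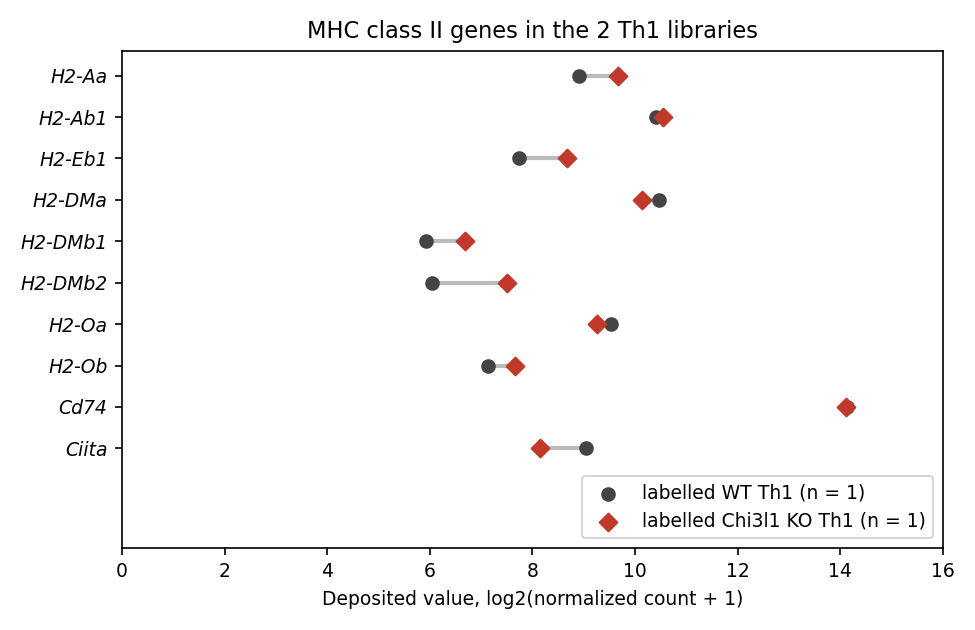
Deposited value of each MHC class II gene (x axis, log2 of the normalized count plus 1, without correction for transcript length) in the library labelled WT Th1 (grey circles) and the library labelled Chi3l1 KO Th1 (red diamonds), n = 1 each and therefore without error bars. Cd74 lies at 14.14 and 14.11, while H2-DMb2 shows the widest gap, from 6.04 to 7.51.

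The 3 chain genes all had higher values in the KO-labelled library, by unequal amounts. H2-Aa, which encodes the alpha chain of the I-A molecule (chromosome 17, 34282744 to 34287823, minus strand, GRCm38), had a log2 value of 8.91 and 497 reads in the WT-labelled library, and 9.66 and 841 reads in the KO-labelled library. Its difference was 0.75 (0.59 to 0.92), or 1.69-fold. H2-Ab1, the beta chain that pairs with it (34257689 to 34269419, plus strand), had 10.40 and 1402 reads, against 10.55 and 1555 reads. Its difference was 0.15 (0.04 to 0.25), and the intervals of the pair did not overlap. With the trend over GC content removed, as described below, the pair lay closer, at 0.63 for H2-Aa and 0.41 for H2-Ab1. H2-Eb1, the beta chain of the I-E molecule (34305867 to 34316674, plus strand), had 7.74 and 221 reads, against 8.68 and 426 reads. It differed by 0.94 (0.70 to 1.18), or 1.92-fold, and its interval overlapped that of H2-Aa. C57BL/6 mice carry a defective gene for the alpha chain of I-E and so do not display that molecule. H2-Ea-ps, the entry for that gene, was listed at 0 in both libraries, and H2-Eb2, a further beta chain gene, had 0 and 2 reads.

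H2-DM is a pair of H2-DMa with the product of H2-DMb1 or H2-DMb2, and its genes did not lie on the same side of 0. H2-DMa (chromosome 17, 34119541 to 34139101, plus strand) had a log2 value of 10.47 and 1472 reads in the WT-labelled library, and 10.15 and 1177 reads in the KO-labelled library, a difference of -0.33 (-0.44 to -0.22). H2-DMb1 (34153072 to 34160230, plus strand) had 5.93 and 62 reads, against 6.70 and 107 reads, a difference of 0.76 (0.32 to 1.26). H2-DMb2 (34143307 to 34151555, plus strand) had 6.04 and 67 reads, against 7.51 and 188 reads. Its difference of 1.47 (1.07 to 1.91), or 2.79-fold, was the largest of the 10 members. The alpha chain gene was thus lower and both beta chain genes higher in the KO-labelled library, in each case beyond the counting interval. The beta chain genes lie next to each other and are near copies. Of the 100-base words in the longest transcript, 13.7% of those of H2-DMb1 and 12.9% of those of H2-DMb2 occur in the other gene, while the other 8 members shared none with any gene. Because reads with multiple alignments were counted, reads of such stretches can stand under both names, and the split between H2-DMb1 and H2-DMb2 is uncertain.

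H2-DO, the modulator of H2-DM, is a pair of H2-Oa and H2-Ob, and is known from B cells and thymic epithelium. H2-Oa (chromosome 17, 34092340 to 34095234, plus strand) had a log2 value of 9.54 and 770 reads in the WT-labelled library, and 9.27 and 640 reads in the KO-labelled library. Its difference was -0.27 (-0.42 to -0.12). H2-Ob (34238903 to 34254414, plus strand) had 7.13 and 144 reads, against 7.66 and 209 reads, a difference of 0.54 (0.22 to 0.85). As with H2-DM, the alpha chain gene was lower and the beta chain gene higher in the KO-labelled library, and their intervals did not overlap.

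Cd74, the invariant chain (chromosome 18, 60803848 to 60812652, plus strand), had a log2 value of 14.14 and 18656 reads in the WT-labelled library, and 14.11 and 18405 reads in the KO-labelled library. The difference of -0.02 (-0.05 to 0.01) was the only one among the members whose interval held 0, and its sign turned under 4 of the alternative normalizations, where it lay between 0.09 and 0.21. Cd74 made up 78.3% of the summed normalized counts of the 10 members in the WT-labelled library and 77.2% in the KO-labelled library. The sum over the members was therefore set by this gene, with a ratio of KO-labelled to WT-labelled of 0.997. Without Cd74 the ratio was 1.05 (1.01 to 1.09), and for the 3 chain genes it was 1.33 (1.25 to 1.40).

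Ciita, the gene of the class II transactivator (chromosome 16, 10480059 to 10528418, plus strand), had a log2 value of 9.05 and 548 reads in the WT-labelled library, and 8.16 and 296 reads in the KO-labelled library. Its difference of -0.89 (-1.10 to -0.69) was 1.86-fold in favour of the WT-labelled library and the lowest among the members. The gene of the transactivator thus had its higher value in the library where the chain genes had their lower ones.

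**Figure D2:**
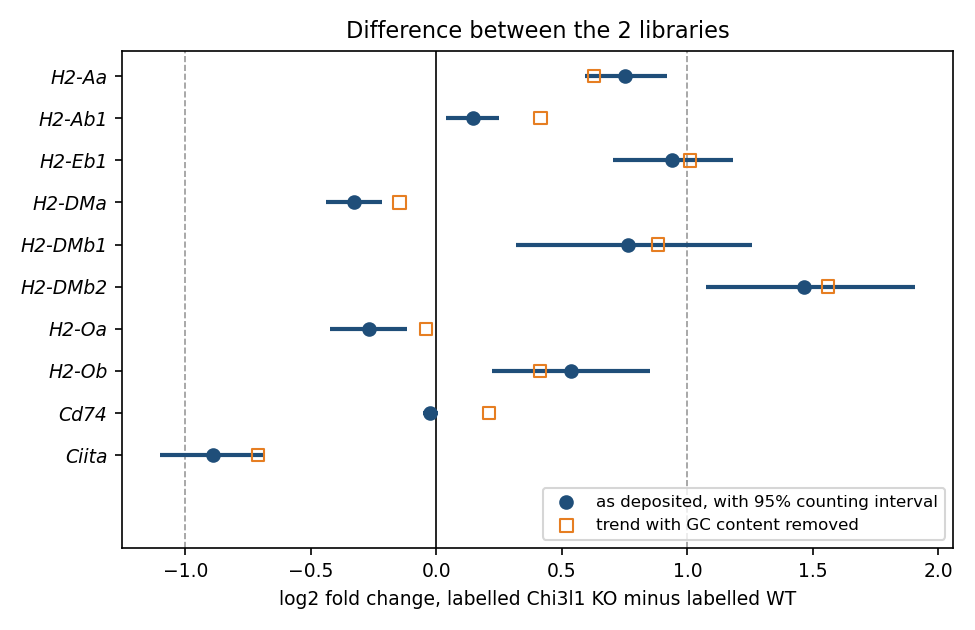
Log2 fold change of each member (x axis, KO-labelled minus WT-labelled library, n = 1 each), as deposited with its exact 95% counting interval (blue points and bars) and after removal of the trend with GC content (orange squares). Dashed lines mark 2-fold. H2-DMb2 lies past the line at 1.47, Ciita is the lowest at -0.89, and trend removal shifts Cd74 from -0.02 to 0.21.

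Levels were compared between genes per kilobase of the longest GENCODE transcript. In the WT-labelled library the order by normalized count per kilobase ran from Cd74 (12768) over H2-Ab1 (1116), H2-DMa (708) and H2-Oa (554) to H2-Aa (149), H2-Eb1 (128), Ciita (88.0), H2-Ob (51.9), H2-DMb2 (43.8) and H2-DMb1 (42.8). The counting intervals of H2-Aa and H2-Eb1 overlapped, as did those of the last 3 genes. In the KO-labelled library the first 4 genes stood in the same order at 12557, 1234, 565 and 460. H2-Aa (251) and H2-Eb1 (245) again overlapped on this length, H2-DMb2 (122) followed, H2-Ob (75.4) and H2-DMb1 (73.1) overlapped, and Ciita (47.4) was last. Ciita thus stood above the beta chain genes of H2-DM and H2-DO in the WT-labelled library and below them in the KO-labelled library.

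The longest transcripts of H2-Aa and H2-Oa are not protein coding, and the order depends on this. With the longest protein coding transcripts, H2-Aa stood at 425 and 717 and H2-Oa at 683 and 566 in the WT-labelled and KO-labelled libraries. H2-Aa then lay above H2-Eb1 in both libraries without overlap, and in the KO-labelled library it also lay above H2-Oa and H2-DMa, which overlapped each other in both libraries.

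The values of the partners of H2-DM and of H2-DO were far from equal. H2-DMa and H2-Oa, the higher partners, have exons that overlap a gene on the opposite strand, as given below. The part of these overlaps in the ratios was not tested. For H2-Ab1 and H2-Aa the size of the gap depended on the transcript length used. In each of the pairs the ratio was smaller in the KO-labelled library. Per kilobase, H2-DMa stood at 8.18 times the sum of H2-DMb1 and H2-DMb2 in the WT-labelled library and at 2.89 times in the KO-labelled library. Reads that align to both H2-DMb genes can enter this sum under both names. In the WT-labelled library it rests on 62 and 67 reads, so these ratios are approximate. H2-Oa stood at 10.7 and 6.09 times H2-Ob, or at 13.1 and 7.51 times with protein coding transcripts. H2-Ab1 stood at 7.51 and 4.92 times H2-Aa, or at 2.63 and 1.72 times with the longest protein coding transcripts. Cd74 stood at 11.4 and 10.2 times H2-Ab1.

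The genes of these proteins lie close together, except Cd74 and Ciita. The 8 members on chromosome 17 span 34092340 to 34316674, a stretch of 224 kb that overlaps 14 listed genes. The 6 other genes include Tap1 and Tap2, the peptide transporter of class I presentation, and the immunoproteasome subunits Psmb8 and Psmb9. Their log2 fold changes ran from -0.51 (Psmb9) to 0.06 (Psmb8) with a median of -0.30, and 0 of the 6 lay past 1.5-fold. Neighbours within the stretch had unlike values. H2-DMb2 (1.47) and H2-DMb1 (0.76) stood between H2-DMa (-0.33) and Psmb9 (-0.51).

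**Figure D3:**
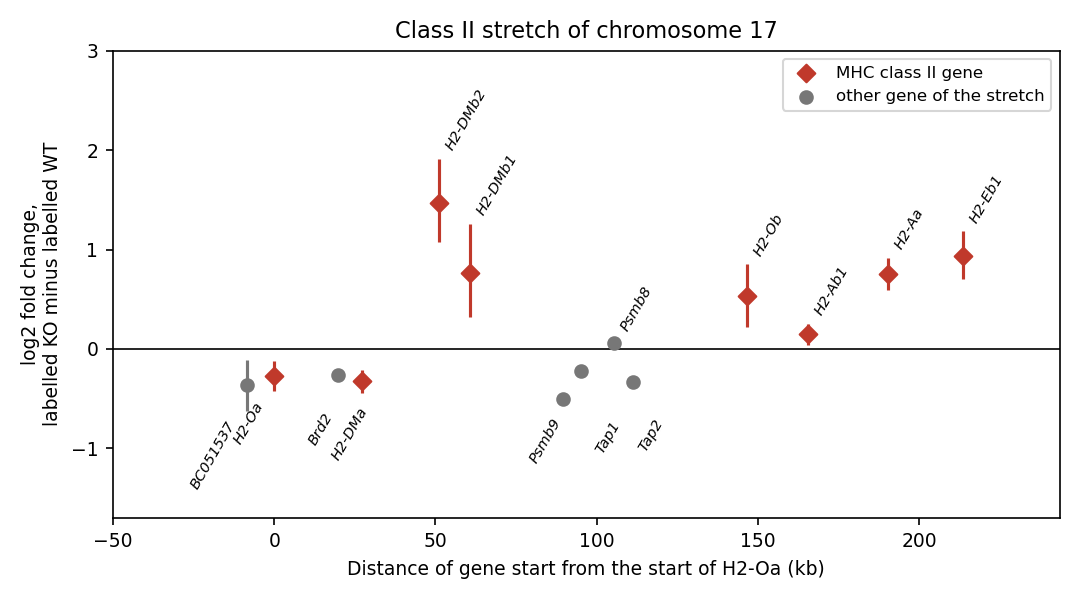
Log2 fold change (y axis, KO-labelled minus WT-labelled library, n = 1 each) of the genes of the class II stretch of chromosome 17 by the distance of their start from that of H2-Oa (x axis, kb). Red diamonds are class II genes and grey circles the other genes, with exact 95% counting intervals as bars. From H2-Ob onward all class II genes lie above 0, and the other genes lie between -0.51 and 0.06.

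Properties that differed among the members are given here beside the values. H2-DMa, H2-Oa and Ciita, the 3 members below 0 beyond their counting interval, are also the 3 with exons that overlap those of a gene on the opposite strand. H2-DMa overlaps Brd2, a bromodomain gene with 50618 and 42256 reads and a difference of -0.27, over 360 bases or 10.4% of its exon bases. H2-Oa overlaps BC051537 (-0.36) over 321 bases or 22.8%, and Ciita overlaps Dexi (-0.55) over 329 bases or 3.45%. Whether the counting used strand is not given in the sources used here, and the part of these overlaps in the values was not tested. Cd74 holds the microRNA gene Mir5107 on the same strand, with 12 shared exon bases.

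The members also differed in GC content. The 5 members with a GC content under 54% in the longest transcript (H2-Aa, H2-Eb1, H2-DMb1, H2-DMb2 and H2-Ob) had log2 fold changes from 0.54 to 1.47. The 5 members over 55% (H2-Ab1, H2-DMa, H2-Oa, Cd74 and Ciita) had values from -0.89 to 0.15. This split was chosen after the values were seen. The longest transcripts of H2-Aa and H2-Oa are not protein coding, and the GC content of their protein coding transcripts was not examined. Over 8579 genes the median log2 fold change ran from 0.23 in the bin of lowest GC content to -0.45 in the bin of highest. With that trend removed, the first 5 members lay between 0.41 and 1.56 and the others between -0.71 and 0.41, so the ranges then met. H2-Ab1 was 0.41, H2-DMa -0.15 and H2-Oa -0.04 on that scale. The part of GC content in the differences was not tested further.

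**Figure D4:**
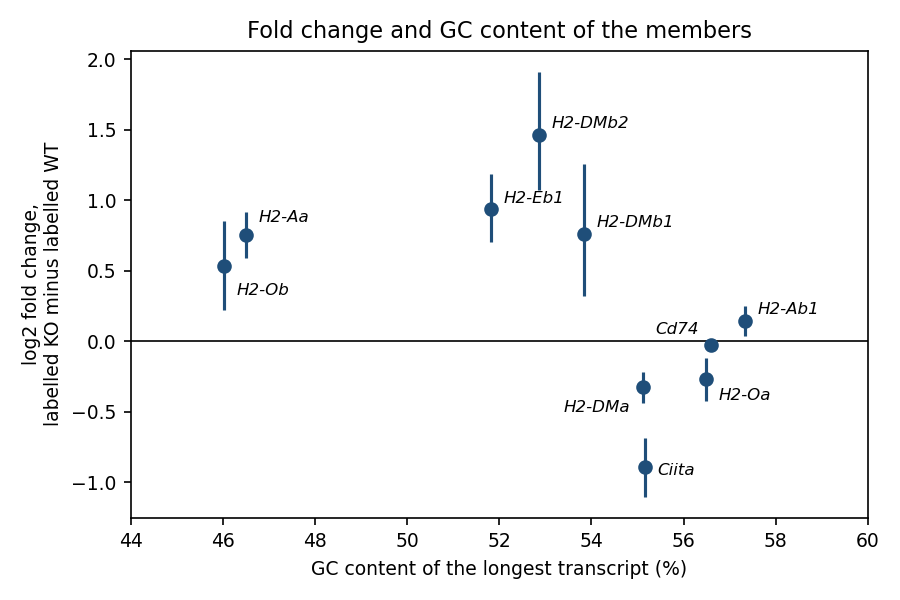
Log2 fold change of each member (y axis, KO-labelled minus WT-labelled library, n = 1 each, bars are exact 95% counting intervals) by the GC content of its longest transcript (x axis, percent). The 5 members under 54% lie between 0.54 and 1.47, and the 5 over 55% lie between -0.89 and 0.15.

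The factors that act on the class II promoters were examined next. Of 10 promoter factors, 0 lay past 2-fold in either direction, 5 had higher and 5 lower values, and the median was 0.00. Among the genes of the RFX complex, Rfx5 differed by -0.08, Rfxap by 0.18 and Rfxank by -0.05. Of NF-Y, which binds the core ATTGG shown in the printed stretches, Nfyb stood out at 0.85 (359 and 647 reads), while Nfya (-0.04) and Nfyc (0.04) were close to 0. The coactivators Crebbp and Ep300 both differed by -0.22.

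Interferon gamma induces Ciita through its receptor, the kinases Jak1 and Jak2, and Irf1. Of 9 genes on this route, 0 lay past 2-fold, 2 had higher and 7 lower values in the KO-labelled library, and the median was -0.21. The receptor chain Ifngr2 differed by -0.85 (1211 and 675 reads), and Socs1, an inhibitor of this signal, by -0.87. Irf1, which acts on the Ciita promoter, differed by -0.14. Jak2 (0.06) and Jak1 (0.01) were the 2 on the other side of 0. Ifng itself had a higher value in the KO-labelled library, at 1.32. Among 5 repressors of Ciita, 0 lay past 2-fold, 2 had higher and 3 lower values in the KO-labelled library, and the median was -0.25. Prdm1, which encodes Blimp-1, differed by 0.80 (372 and 652 reads) and the DNA methyltransferase Dnmt3b by -0.51.

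Lysosomal enzymes cut the invariant chain and the antigens. Of 9 such genes, 0 lay past 2-fold, 8 had higher values and 1 a lower value in the KO-labelled library, with a median of 0.14. Ctss, the cathepsin known for the last cut of the invariant chain, differed by 0.46 (1101 and 1521 reads), and Lgmn, an asparagine endopeptidase, by 0.80 (380 and 662 reads). Ctsl had the largest difference in the list, 0.87, on 17 and 32 reads. March1, the ubiquitin ligase that removes class II from the surface of B cells and dendritic cells, had 0 and 11 reads, and the related March8 differed by -0.33. Of 7 costimulation and adhesion genes of presenting cells, 2 lay at least 2-fold higher and 0 lower. Cd40, a receptor of B cells and dendritic cells, differed by 1.13 (456 and 1003 reads), and Icosl, the ligand of ICOS, by 1.07 (45 and 97 reads). Cd86, which activated presenting cells carry, had 36 and 35 reads.

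MHC class I genes are expressed by nearly all cells and served as a comparison within antigen presentation. Of 9 genes, 0 lay past 2-fold, 2 had higher and 7 lower values in the KO-labelled library, and the median was -0.20. B2m, the light chain of class I, differed by -0.19 and Nlrc5, the transactivator of class I genes, by -0.05.

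Marker genes of class II expressing cells were present in both libraries. All 12 B cell genes had a higher value in the KO-labelled library, with counting intervals above 0 for all 12, and 6 of them lay past 2-fold. Of the 11 with 20 or more reads in at least 1 library, 5 lay past 2-fold. Among all genes with that many reads, 3.22% were at least 2-fold higher and 34% had an interval above 0. Cd22, an inhibitory B cell receptor, had 723 and 1662 reads, a difference of 1.20. Fcrla differed by 1.51, and Ebf1, a B cell transcription factor, by 1.09. The kinase gene Blk had 17 and 71 reads, or 4.18-fold, and Cr2, a complement receptor, had 5 and 18 reads. No defining B cell gene was at 0. Cd79b, a subunit of the B cell receptor, differed least, at 0.27. The summed normalized counts of the list had a ratio of 1.91 (1.85 to 1.98), and 2.03 (1.93 to 2.14) without Fcer2a, which held 60.4% of the sum in the WT-labelled library. Beside it, the folds of the members ran from 0.54 (Ciita), 0.80 (H2-DMa), 0.83 (H2-Oa) and 0.98 (Cd74) over 1.11 (H2-Ab1) and 1.45 (H2-Ob) to 1.69 (H2-Aa), 1.71 (H2-DMb1), 1.92 (H2-Eb1) and 2.79 (H2-DMb2). The part of B cell RNA in the class II values was not tested.

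Markers of other presenting cells were sparse and mixed. Of 10 dendritic cell genes, 3 were at least 2-fold higher and 1 was lower in the KO-labelled library. Of the 5 with 20 or more reads in at least 1 library, 2 were higher and 1 was lower. Over all genes with that many reads, the shares were 3.22% and 4.4%. Flt3, a growth factor receptor, had 18 and 68 reads, and Zbtb46, a transcription factor of conventional dendritic cells, 14 and 48. Itgax, which encodes CD11c, had 44 and 5 reads. Clec9a, Cd209a, Siglech and Clec10a were at 0 in both libraries. The summed ratio was 1.19, and 1.63 (1.26 to 2.12) without Cst3, a widely expressed gene that held 98.3% of the sum in the WT-labelled library. Of 13 macrophage or monocyte genes, 2 were at least 2-fold higher and 3 lower, some of them on few reads. Among the 5 with 20 or more reads in at least 1 library, 1 was higher and 1 was lower. The defining genes Adgre1, C1qa, C1qb and C1qc were at 0 in both libraries. Csf1r, the receptor of macrophage growth factor, had 97 and 175 reads, Mrc1 0 and 29, and Lyz2, lysozyme of myeloid cells, 34 and 2. Cd68 had 404 and 301 reads and Itgam 164 and 94. The summed ratio of this list was 0.850, and 0.989 (0.844 to 1.16) without Cd68. That gene held 56.2% of the sum in the WT-labelled library. The part of these cells in the class II values was not tested.

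**Figure D5:**
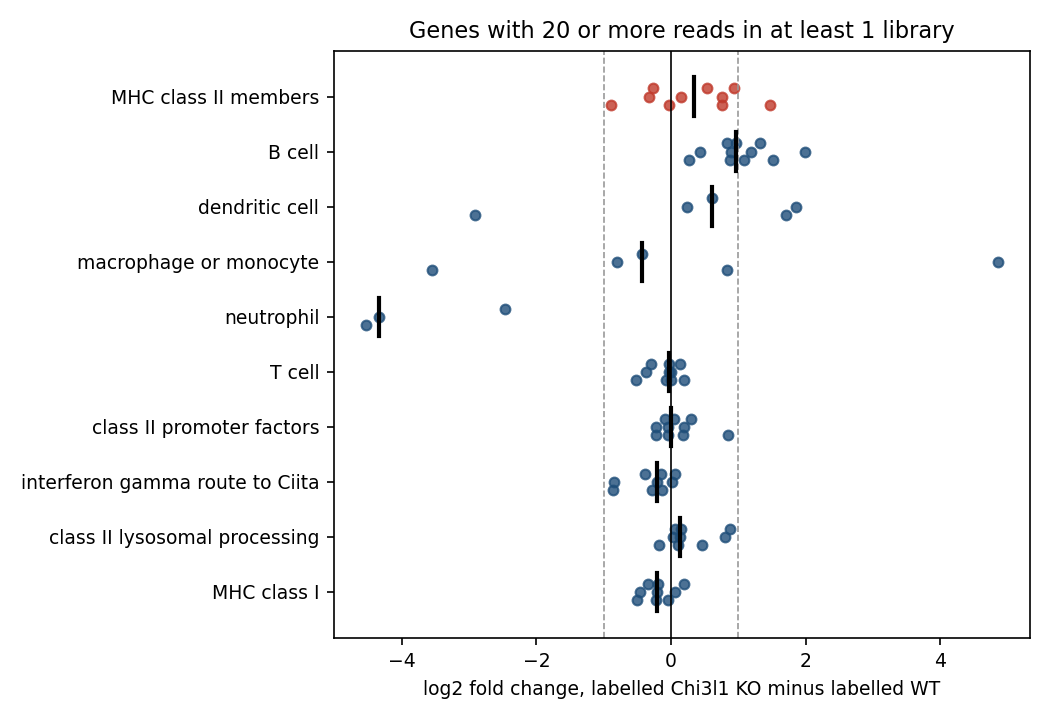
Log2 fold change (x axis, KO-labelled minus WT-labelled library, n = 1 each) of the genes in each list that had 20 or more reads in at least 1 library. Points are genes, black bars are medians and dashed lines mark 2-fold. The class II genes spread from -0.89 to 1.47 around a median of 0.34, and all B cell genes shown lie above 0.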

How the data were processed

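RNA was sequenced from Th1 cells labelled WT and Chi3l1 KO, 1 library each (SENSE mRNA kit, polyadenylated RNA, paired ends). The authors mapped reads with TopHat, counted unique and multiple alignments and compared them with edgeR. The submitters' processing notes name build mm10, and the counter, its strand setting and the annotation are not given in the sources used here. The deposited unit was inferred from the values as a log2 scale of normalized counts with 1 added: after the log was undone, 100% of the 2806 (WT-labelled) and 2783 (KO-labelled) values under 20 lay within 0.2 of a whole multiple of 1 step, 0.965 and 0.962. Reads were rebuilt by division by this step and are approximate for abundant genes. At 3 reads the deposited scale stands at 1.96 in both libraries.

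The members and gene lists were chosen with earlier results of these data known. Named are all members, the targeted gene, and from the lists each gene past 2-fold with 20 or more reads, with others as examples, and a few genes of the lists are not reported here by name. No test was possible with 1 sample per genotype. Gene positions, transcript lengths, GC content, overlaps and shared 100-base words came from GENCODE M21 (GRCm38), which matched 95.7% of the symbols. The GC trend was the median of 20 bins over genes at 8 or more on the log2 scale in both libraries. The alternatives were a pseudocount of 0.1, median-ratio, quantile and Actb scaling, GC trend removal, thresholds of 1.5-fold and 3-fold and a filter of 20 reads. Scaling to library totals, medians without the H2-DMb genes and protein coding transcript lengths were added after seeing the data. Scripts were tested on simulated data and ran in Python 3.11.15 (matplotlib 3.10.9, scipy 1.17.1, pandas 2.3.3, numpy 2.4.6).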

Additional observations from a re-analysis of the deposited data

How the results depend on the processing

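No paired analysis was possible because each genotype has 1 sample. Of 118 alternative values, 92 stayed within the counting interval, or for counts within 1.5 times, and 26 moved beyond it. In 56 of 60 member differences the sign was kept, the 4 exceptions being those of Cd74: 0.13 with quantile normalization, 0.092 with Actb scaling, 0.21 with the GC trend removed and 0.14 with scaling to library totals. Actb scaling shifted all genes by 0.12 and library totals by 0.17 on the log2 scale. Actb scaling gave 0.26 for H2-Ab1 and -0.21 for H2-DMa. GC trend removal gave 0.41 for H2-Ab1, -0.15 for H2-DMa and, for H2-Oa, -0.042. Library totals gave 0.92 for H2-Aa, 0.31 for H2-Ab1, -0.16 for H2-DMa and -0.10 for H2-Oa. Members at least 2-fold higher numbered 2 under each of these 3 settings, H2-Eb1 being the second. They numbered 4 at 1.5-fold and 0 at 3-fold, and 1 member was lower at 1.5-fold. The median of the members was 0.0605 without H2-DMb1 and H2-DMb2. The log2 ratio of the summed counts, 0.00 as deposited, was 0.11 with Actb scaling, 0.16 with library totals and 0.065 without Cd74. With the filter on reads, the NK cell list kept 1 gene and its log2 ratio was 1.83. With protein coding transcripts, the WT-labelled library gave 425 per kilobase for H2-Aa and 683 for H2-Oa. Depth limits H2-DMb1 and H2-DMb2 most, with 62 and 67 reads in the WT-labelled library.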

Other observations

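Neutrophil genes, which belong to cells without constitutive class II, were low in both libraries and lower in the KO-labelled one. Of 7 listed genes, 0 were at least 2-fold higher and 5 lower, with Mpo at 32 and 5 reads, Elane at 20 and 0, and Ngp at 23 and 0. The counting interval lay below 0 for these 3 only, as S100a8 had 5 and 0 reads and S100a9 had 3 and 0. Over all genes, 4.7% were at least 2-fold higher and 5.81% at least 2-fold lower. Of 4 NK cell genes, 3 were at least 2-fold higher, with Klra8, a receptor of the Ly49 family, at 11 and 39 reads and the others under 20 reads. The CD8 T cell genes had values on both sides of 0, with Cd8a at 0.60 and Cd8b1 at -0.47. Of 6 genes of thymic epithelium and stroma, 0 lay past 2-fold and 3 were at 0 in both libraries, while Epcam, an epithelial marker, had 173 and 224 reads.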
